A study of Vitis vinifera with 12 samples.

Results

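The transcripts followed here are those of 2 stilbene synthase arrays of grapevine and of the regulators MYB14 and MYB15, 43 of the 22580 identifiers measured. The rule that picks them uses identifiers and no measured value: 34 identifiers from VIT_16s0100g00750 to VIT_16s0100g01200 (the chromosome 16 array), 7 from VIT_10s0042g00840 to VIT_10s0042g00930 (the chromosome 10 array), VIT_07s0005g03340 (MYB14) and VIT_05s0049g01020 (MYB15). These names belong to the selection; the expression table pairs no identifier with a gene name, so neither they nor the labelled tissue could be checked against marker genes.

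Stilbene synthase makes resveratrol from coumaroyl-CoA and malonyl-CoA, the same substrates that chalcone synthase takes into flavonoids and anthocyanins. In grapevine the enzyme is encoded by large tandem arrays of near-identical genes, and its transcripts are known to appear after wounding, ultraviolet light or fungal attack and, in some cultivars, in ripening skins. MYB14 and MYB15 are R2R3-type MYB transcription factors known in grapevine to activate stilbene synthase promoters.

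Berries of Flame Seedless, a red-skinned seedless table grape, were sampled at 40, 50, 60 and 80 days after full bloom, with 3 libraries (a, b and c) at each age and no other treatment in the labels. The labels' protocols describe separate RNA extractions from biological replicates that were combined before library construction, so a, b and c may be technical replicates and the p-values cover no more than the variation among them. Levels are FPKM, fragment numbers scaled to gene length and to the size of the library. Across libraries, 13166 to 14326 identifiers reached 1 FPKM, and correlations of log2(FPKM + 1) between libraries of an age were 0.977 to 0.984 across identifiers.

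Both arrays were close to silent in the developing berry. Of the 492 values of the 41 array members, 347 (70.5%) were listed at 0, against 18.95% of all values in the table. The 145 values above 0 had a median of 0.103 FPKM, and 70 of them were under 0.1 FPKM. The median of the members' mean levels was 0.0503 FPKM, against 3.79 FPKM over all identifiers. No array member reached 1 FPKM in at least 3 of the 12 libraries, the filter for testing, which 64.6% of all identifiers passed; of all 43 genes, MYB15 alone passed it. VIT_10s0042g00910 was listed at 0 in every library. Because the copies are near-identical and the treatment of reads that match several of them is not given in the sources used here, the division of reads between members is uncertain, and levels would be underestimates if such reads had been left out.

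The near-silent stretch began and ended at the borders of the chromosome 16 array. Just before it, VIT_16s0100g00740 lay between 1.74 and 15.2 FPKM, and just after it VIT_16s0100g01210 lay between 5.03 and 13.7 FPKM. Of the other 64 identifiers in that block 39 (60.9%) passed the filter, against none of the 34 members. Mean levels of the 10 nearest tested identifiers before the array had a median of 9.45 FPKM, and the 9 tested after it a median of 39.8 FPKM. These neighbours had passed the filter, so medians above the levels of the members were fixed in advance. Untested identifiers lay among them, such as VIT_16s0100g00710 at a mean of 0.0210 FPKM. The limit on reads that match several copies applies to these borders too. Around the chromosome 10 array the lower border was less sharp, since identifiers that did not pass the filter lay between it and the nearest tested one. The nearest tested neighbours there were VIT_10s0042g00800, at 44.9 to 53.6 FPKM, and VIT_10s0042g00950, at 14.4 to 28.7 FPKM.

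**Figure D1:**
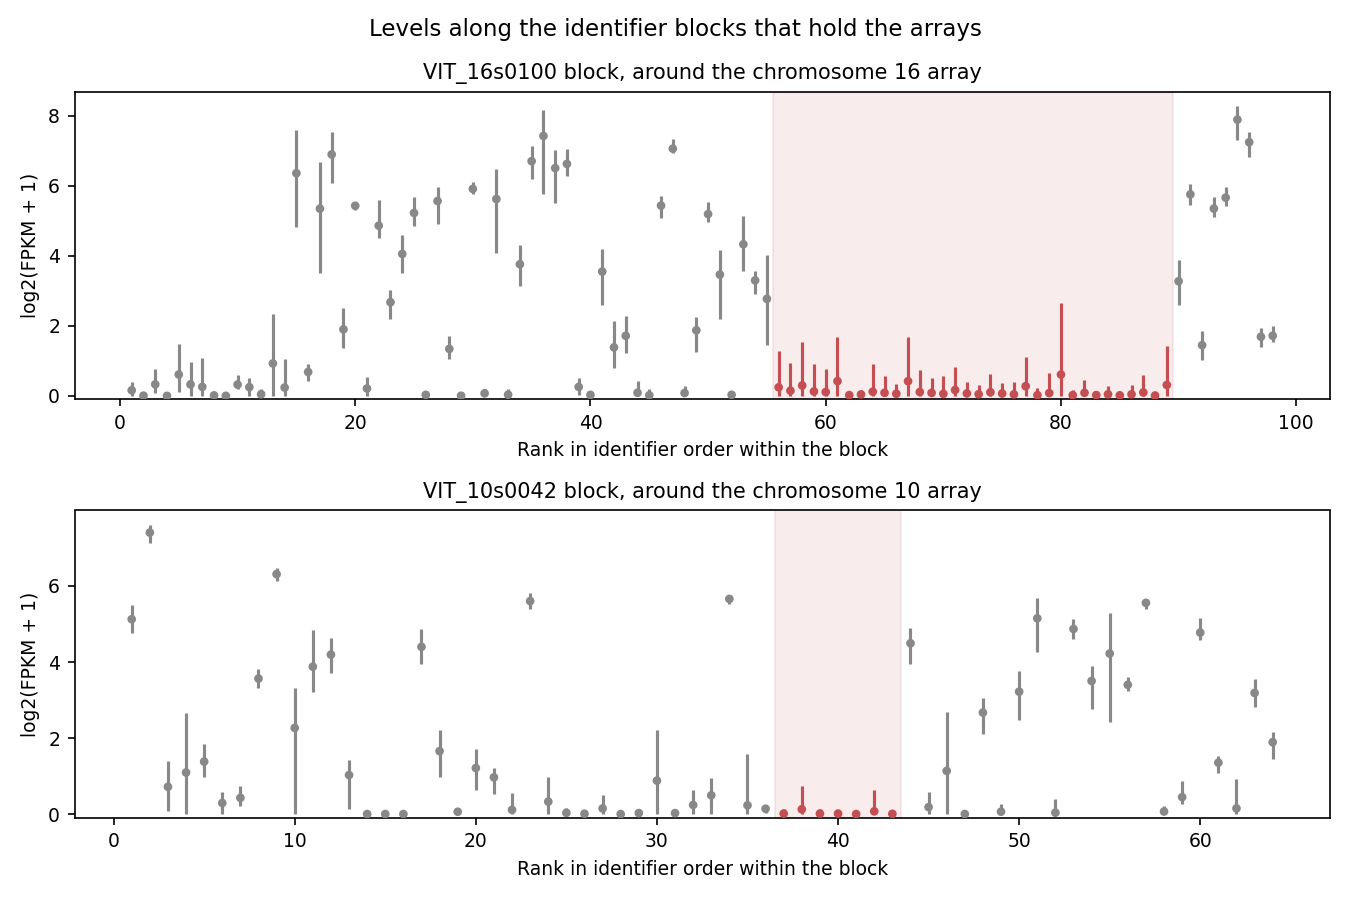
Level of each identifier on the log2(FPKM + 1) scale (y) by its rank in identifier order (x) in the blocks that hold the arrays; points are means over 12 libraries, vertical lines run from the lowest to the highest library, and array members are red on a shaded ground. Mean levels of the 34 members of the chromosome 16 array lie near 0 between expressed neighbours such as VIT_16s0100g00740 and VIT_16s0100g01210.

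Summed over its 34 members, the chromosome 16 array stood at 0.0261, 0.879 and 0 FPKM in the 40-day libraries a, b and c. At 50 days the sums were 21.03, 0.229 and 0.0443 FPKM, at 60 days 10.9, 0.579 and 0.169 FPKM, and at 80 days 0.550, 5.36 and 1.16 FPKM. From 50 days on, a single library at each age thus held most of the signal (50a, 60a and 80b), while the other libraries of those ages lay between 0.0443 and 1.16 FPKM, a range that holds 40b. Without these libraries the mean sum was 0.137 instead of 7.10 FPKM at 50 days, 0.374 instead of 3.89 FPKM at 60 days and 0.856 instead of 2.36 FPKM at 80 days. At 40 days it was 0.302 FPKM, and 0.013 FPKM without 40b. In berries, as in any bulk tissue, fewer cells of a type and less RNA per cell cannot be told apart.

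For the chromosome 10 array the 7 members summed to 0, 0 and 0.0533 FPKM at 40 days and to 0.147, 0 and 0 FPKM at 50 days. The sums were 1.33, 0.0468 and 0.0315 FPKM at 60 days and 0.104, 0.286 and 0.0396 FPKM at 80 days. Its highest library was 60a, not 50a, and 2 members, VIT_10s0042g00870 at 0.682 FPKM and VIT_10s0042g00920 at 0.554 FPKM, gave most of that sum. VIT_10s0042g00870 was also above 0 in 50a, 60b, 60c, 80b and 80c, at 0.0315 to 0.240 FPKM, whereas VIT_10s0042g00920 was above 0 in 50a alone besides 60a, at 0.0502 FPKM. The third by mean level, VIT_10s0042g00900, was at 0.0533 FPKM in 40c and 0.0512 FPKM in 50a and listed at 0 in the other 10 libraries. Mean sums without 60a and 80b were 0.0391 instead of 0.470 FPKM at 60 days and 0.0716 instead of 0.143 FPKM at 80 days.

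**Figure D2:**
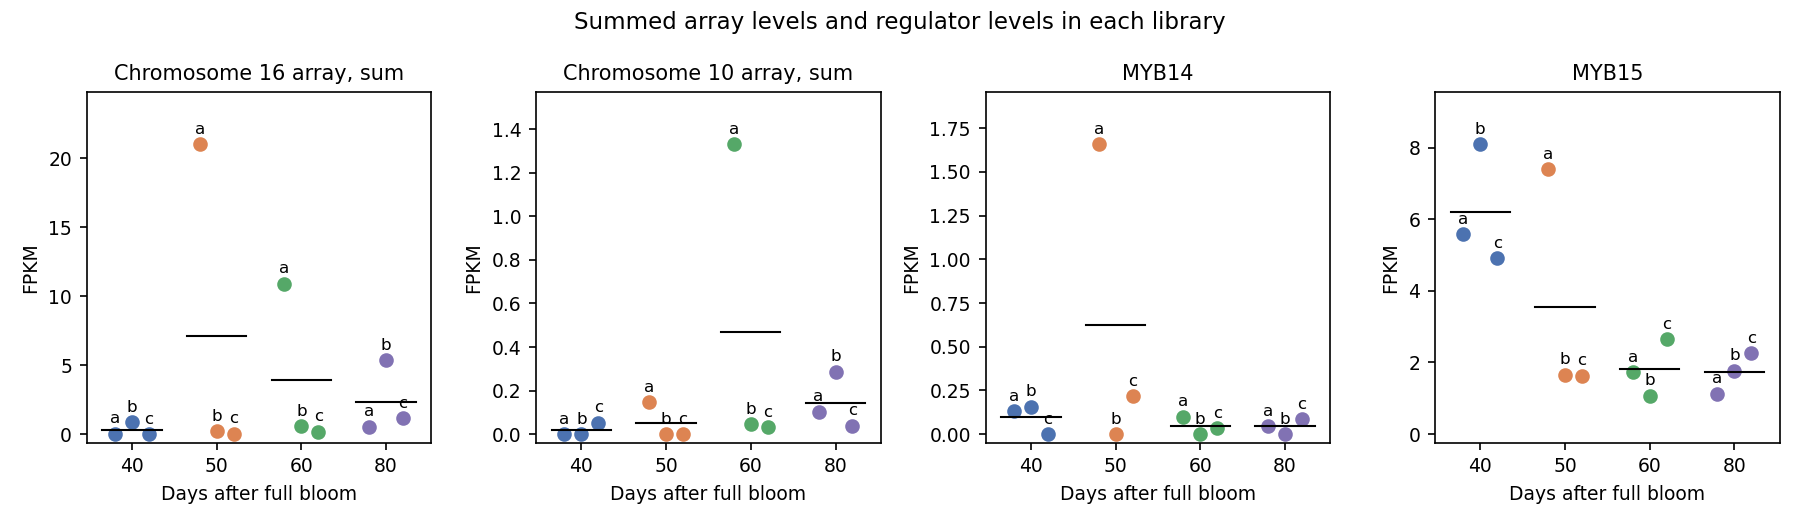
FPKM (y, linear, a separate scale in each panel) by days after full bloom (x) for the summed chromosome 16 array, the summed chromosome 10 array, MYB14 and MYB15; each point is a library with its replicate letter, and the line is the mean of the 3 libraries of an age. The array sums are set by 50a, 60a and 80b, while MYB15 is at 4.90 FPKM or more in the 40-day libraries and in 50a and at most 2.66 FPKM in the others.

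The libraries that stood apart did so across most of the family. In 50a 31 of the 41 array members were above 0, against 4 in 50b and 1 in 50c, in 60a 34 against 10 and 5, and in 80b 25 against 9 in 80a and 15 in 80c. Over the whole table, identifiers listed at 0 numbered 3869 in 50a against 4381 and 4873 in 50b and 50c. They numbered 4518 in 60a against 4586 and 4074 in 60b and 60c, and 4286 in 80b against 4731 and 4532 in 80a and 80c. At 40 days, where array sums were low, identifiers listed at 0 numbered 3468 in 40a, 3408 in 40b and 4624 in 40c. Within their ages, the fewer zeros in 50a and 80b were thus seen over the table as well, but not in 60a against 60c. The part of these zeros in the result was not tested.

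Among members above 0 at an age, 50a was the highest of its age for 30 of 31, where it was so for 32.4% of all identifiers. For 60a the count was 34 of 35, against 29.6% of all identifiers, and for 80b 23 of 30, against 33.7%. The expressed neighbours of the chromosome 16 array did not share this: 50a was the highest of its age in 7 of 19, 60a in 6 and 80b in 6, and their median difference from the other libraries of the age was 0.02, 0.01 and 0.01 on the log2 scale. Near the chromosome 10 array the counts were 9, 6 and 7 of 20. Over all tested identifiers, which hold no array member, deviations from the age means correlated at 0.408 between 40b and 50a. The values were 0.248 for 50a and 80b and 0.170 for 40b and 80b. With 60a they were 0.0560 for 40b, 0.0418 for 50a and -0.0374 for 80b. A pair outside these libraries, 40a and 50b, stood at 0.293. The part of these correlations in the array signal was not tested. Over all 12 libraries, 19 array members were highest in 50a, 16 in 60a and 3 in 80b. Of all identifiers above 0, 4.91%, 3.99% and 8.80% were highest in these libraries. Since 50a, 60a and 80b were picked for their high array sums, the member counts restate that signal and are no separate support for it. Members may also share reads and are not independent.

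**Figure D3:**
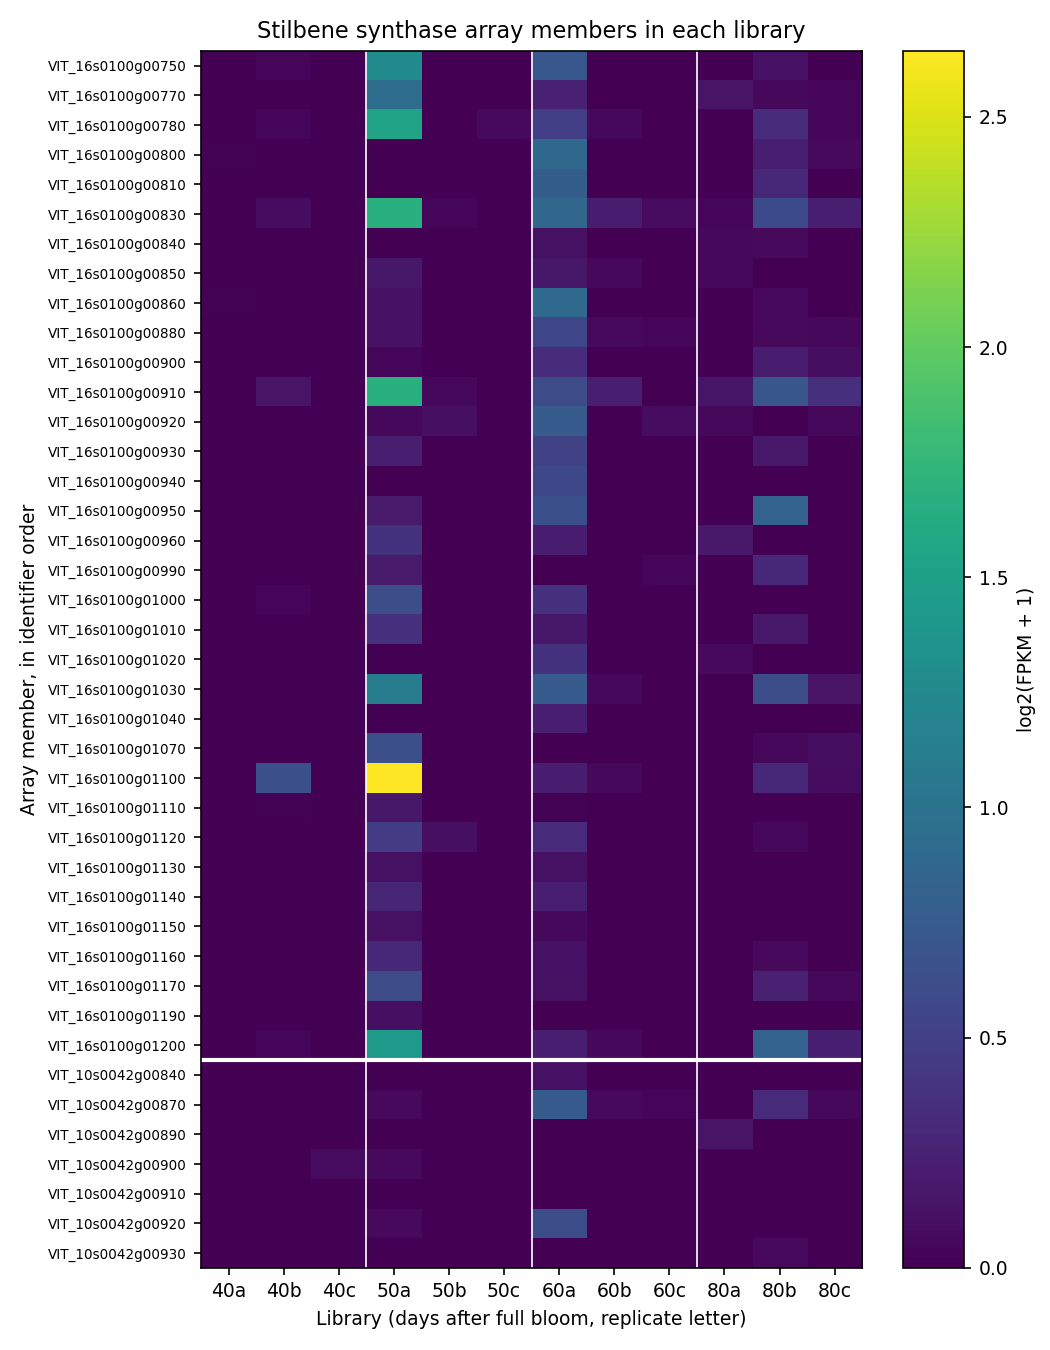
Level of the 41 array members (rows, in identifier order, the chromosome 10 array under the white line) in the 12 libraries (columns, by age and replicate letter), coloured by log2(FPKM + 1). The columns 50a, 60a and 80b carry most of the signal, with the highest value, 5.25 FPKM, for VIT_16s0100g01100 in 50a.

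Levels of 1 FPKM were reached by 7 array members, all of the chromosome 16 array and each in 50a alone; 61.4% of all identifiers reached it in that library, and 69.7% in any library. The highest was VIT_16s0100g01100, at 5.25 FPKM in 50a, 0.563 FPKM in 40b, 0.236 FPKM in 80b and 0.149 FPKM in 60a; it was at most 0.0650 FPKM in the other 8 libraries. Next came VIT_16s0100g00830 and VIT_16s0100g00910, at 2.20 FPKM each in 50a. VIT_16s0100g00830 was also at 0.825 FPKM in 60a and 0.512 FPKM in 80b. VIT_16s0100g00910 was at 0.520 FPKM in 60a and 0.633 FPKM in 80b, and had in 80c 0.280 FPKM, the highest array value there. Both were above 0 in 40b, 50b, 60b, 80a and 80c too, and so gave a trace at every age.

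The other members that reached 1 FPKM in 50a lay along the whole array. VIT_16s0100g00780 was at 1.92 FPKM there, at 0.400 FPKM in 60a and at 0.258 FPKM in 80b. VIT_16s0100g01200, the last member, was at 1.70 FPKM in 50a, 0.162 FPKM in 60a and 0.776 FPKM in 80b. The first member, VIT_16s0100g00750, was at 1.42 FPKM in 50a, 0.650 FPKM in 60a and 0.0913 FPKM in 80b. VIT_16s0100g01030 was at 1.16 FPKM in 50a, 0.696 FPKM in 60a and 0.539 FPKM in 80b, the smallest difference between these libraries among the 7. Just under the mark, VIT_16s0100g00770 was at 0.925 FPKM in 50a and 0.186 FPKM in 60a.

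The members listed highest differed between the libraries. Depth is unknown and the division of reads between near-identical copies is uncertain, so whether the members themselves differed was not tested. In 50a VIT_16s0100g01100 made up 25.0% of the chromosome 16 sum and the 5 highest members 63.1%. In 60a the signal was spread more evenly, with VIT_16s0100g00860 at 0.874 FPKM as the highest member (8.0%) and 36.4% in the 5 highest. In 80b VIT_16s0100g01200 was the highest (14.5%), followed by VIT_16s0100g00950 at 0.775 FPKM, which was at 0.563 FPKM in 60a, at 0.140 FPKM in 50a and listed at 0 in all other libraries. Spearman's rho across the 41 members, which may share reads and are not independent, was 0.13 between 50a and 60a, 0.49 between 50a and 80b and 0.40 between 60a and 80b.

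The sums were also split by position along the array, as a description and not as a test. The array was divided at VIT_16s0100g01000, a border set after the values were seen. The 18 members before it held 46.6% of the chromosome 16 sum in 50a, 75.8% in 60a and 62.5% in 80b. The share in 50a depends on a single member, since VIT_16s0100g01100 gave 5.25 of the 11.2 FPKM from the border on. Of the 18 members before the border, 11 were higher in 60a than in 50a. Of the 16 from the border on, 3 were higher in 60a and 13 in 50a. Some of these differences were close to 0, as for VIT_16s0100g01130, at 0.0880 FPKM in 50a and 0.0885 FPKM in 60a. VIT_16s0100g00800 was listed at 0 in 50a and stood at 0.861 FPKM in 60a, and its neighbour VIT_16s0100g00810 went from 0 to 0.717 FPKM between the same libraries. In all, 7 array members were listed at 0 in 50a and above 0 in 60a, and 4 the other way, the highest of which was VIT_16s0100g01070 at 0.563 FPKM in 50a. Each share comes from a single library and describes that library, not its age.

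**Figure D4:**
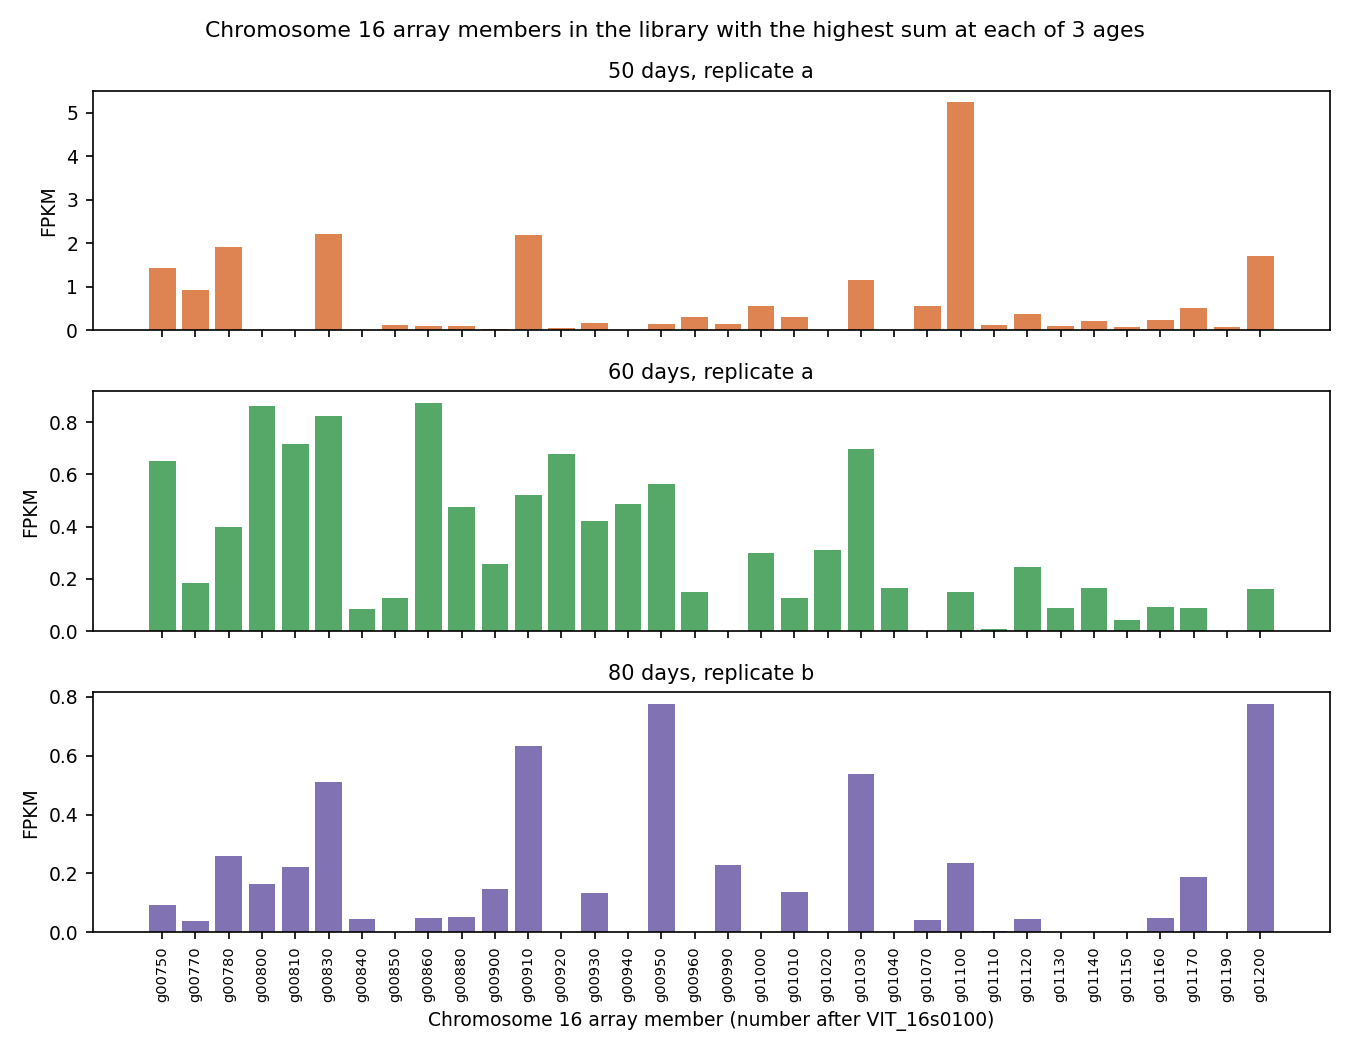
FPKM (y, linear, a separate scale in each panel) of the 34 members of the chromosome 16 array in identifier order (x) in the libraries 50a, 60a and 80b, each bar a single value. VIT_16s0100g01100 stands out at 5.25 FPKM in 50a but not in 60a, where members before VIT_16s0100g01000 hold 75.8% of the sum.

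MYB14 reached 1 FPKM in a single library, the one highest for the chromosome 16 array. It was at 0.130, 0.158 and 0 FPKM at 40 days, at 1.66, 0 and 0.216 FPKM at 50 days, at 0.0988, 0 and 0.0346 FPKM at 60 days and at 0.0450, 0 and 0.0861 FPKM at 80 days. It was listed at 0 in 4 libraries, and the values of the ages overlapped. In 60a and 80b, the other libraries high for the arrays, MYB14 was at 0.0988 and 0 FPKM, within its range in the remaining libraries.

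MYB15 was at 1 FPKM or more in all 12 libraries, as no other of the 43 genes was, and it fell between 40 and 80 days. Its levels were 5.58, 8.09 and 4.90 FPKM at 40 days, 7.40, 1.66 and 1.63 FPKM at 50 days, 1.72, 1.07 and 2.66 FPKM at 60 days and 1.13, 1.77 and 2.26 FPKM at 80 days. Every 80-day library was below every 40-day library, as in 33.2% of tested identifiers. The means were 6.19 ± 1.68 FPKM at 40 days and 1.72 ± 0.565 FPKM at 80 days (SD, n = 3), a difference of -1.40 ± 0.408 (SE) on the log2(FPKM + 1) scale, which understates the change of low genes. The adjusted p was 0.0116 in limma over all 14579 tested identifiers, of which 14.0% were called as falling over this period and 6.95% as rising (a log2 difference of 1 or more with an adjusted p under 0.05). The call held without each of the 12 libraries in turn (limma adjusted p 0.000712 to 0.0456).

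When MYB15 fell depended on 50a. From 40 to 50 days the log2 difference was -0.86 ± 0.408 (limma adjusted p = 0.13) and was not called. Without 50a it was -1.42 ± 0.272 (limma adjusted p = 0.00501) and was called, where 6.32% of identifiers were called as falling without that library. With it, 5.93% were called as falling and 8.03% in either direction. From 50 to 60 days the difference was -0.50 ± 0.408 (limma adjusted p = 0.428), and 0.05 without 50a; from 60 to 80 days it was -0.03 ± 0.408 (limma adjusted p = 0.963). Neither was called; 3.68% of identifiers were called from 50 to 60 days (2.53% as falling) and 3.60% from 60 to 80 days (2.08% as falling). Change over all 4 ages was called (limma F test, adjusted p = 0.0315), as for 24.3% of identifiers, but was lost without any of 40a, 40b, 40c, 60a, 60b, 80a or 80b, with adjusted p up to 0.119.

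Since no array member, nor MYB14, passed the filter, they were also fitted without it, among 21179 identifiers. Of the 41 of them above 0 in any library, 0 had even an unadjusted p under 0.05 in any of the 4 comparisons or over all ages in limma. The smallest unadjusted p was 0.103, for MYB14 from 50 to 60 days, and the smallest adjusted p was 0.283. The log2 differences ran from -0.80 to 0.67, both for VIT_16s0100g01100, which was above 0 in no 50-day library but 50a. Of the array members, 34 never reached 1 FPKM, so their log2(FPKM + 1) differences could not reach the 1 needed for a call. Single libraries also widened the spread, as for VIT_16s0100g01100 at 50 days (mean 1.75, SD 3.03 FPKM, n = 3). Depth is unknown as well, so a change between ages at these levels was not detectable here and is not shown to be absent. For the fit without the filter, the share of all 21179 identifiers with an unadjusted limma p under 0.05 was not counted. The 0 of 41 thus has no rate beside it and is not a result about the members. Among the tested neighbours of the chromosome 16 array, 1 of 19 was called, as rising from 40 to 80 days. Beside the chromosome 10 array, of 20 tested neighbours 1 was called as rising from 50 to 60 days, and 1 as rising and 1 as falling from 40 to 80 days. Over all tested identifiers, 6.95% were called as rising and 14.0% as falling from 40 to 80 days. From 50 to 60 days 3.68% were called in either direction.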

How the data were processed

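The authors deposited 1 table of FPKM values with 22580 identifiers and 12 libraries, whose column codes were matched to those in the labels. Trimmomatic 0.36, FastQC, TopHat2, Cufflinks and edgeR appear, without roles, in the submitters' processing notes. The sources used here give no genome build, annotation, rule for multiply matching reads or depth. Per the labels' protocols, the libraries were strand-specific and made from polyadenylated RNA.

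Identifiers with at least 1 FPKM in at least 3 of 12 libraries (14579) were fitted as log2(FPKM + 1), a pseudocount of 1, with a mean per age and a trended prior variance in limma 3.58.1 under R 4.3.3. Calls needed a Benjamini-Hochberg adjusted p under 0.05 over all tested identifiers and a log2 difference of at least 1. The fit was tested on simulated data, with changes given only to identifiers at higher mean levels than any gene followed here. That test therefore does not cover genes at their levels. Array levels were summed per library and described without a test.

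Members were picked by identifier, but these genes, the lists and the tests were settled on with earlier results of these data known. Genes named were the regulators, the 10 chromosome 16 and 3 chromosome 10 members with the highest mean, and any called; other members, named for their level in a particular library, were picked after their values were seen. Neighbours were the 10 nearest tested identifiers on each side. None of the identifiers (0) matched the RefSeq gene table (29591 genes), where MYB14 was found by symbol, so a list of other phenylpropanoid genes was not used here.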

Additional observations from a re-analysis of the deposited data

How the results depend on the processing

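The number of members called was 1 from 40 to 80 days and over all ages (MYB15 in both) and 0 in each interval between neighbouring ages. Testing only identifiers that averaged 5 FPKM, which MYB15 did not reach, it was 0 from 40 to 80 days and 0 over all ages; the call over all ages was also lost (0) without a filter and with the replicate block. Leaving out each library in turn gave 0 to 1 calls from 40 to 50 days, the 1 without 50a, and 0 to 1 over all ages. The letters showed no pairing: deviations from the age means correlated over 0.1 in 4 of 18 same-letter pairs and in 7 of 36 pairs of different letters, and 4 of 12 libraries correlated best with their own letter. With the replicate block, the count stayed at 1 from 40 to 80 days. No count of calls changed with a pseudocount of 0.1, median-ratio scaling, limma without a trend or no minimum difference. The same held for a fit to only the ages compared (not possible over all ages). In these settings MYB15 was the only member tested, so a count could only be 0 or 1 and does not describe the arrays. Median-ratio scaling gave array sums of 7.09 instead of 7.10 FPKM at 50 days. Of the log2 differences of named members other than MYB15, 52 moved by more than 1 SD, all with a pseudocount of 0.1, without 50a or without 60a. With MYB15 counted in, 859 differences were judged the same. Depth is unknown, which limits what can be said of levels under 1 FPKM.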
